A study of Mus musculus with 12 samples.

Results

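FoxP3 binding was examined at 3 loci of the BCL-2 family, Bcl2, Bcl2l11 and Mcl1, in regulatory T (Treg) cells carrying either a substituted or the wild-type FoxP3 protein. The members were all peaks whose summit lay inside 1 of 3 mm9 windows: chromosome 1 from 108380000 to 108680000 for Bcl2, chromosome 2 from 127920000 to 128030000 for Bcl2l11, and chromosome 3 from 95430000 to 95500000 for Mcl1. These windows held 104 peaks in 6 lists. Overlapping peaks (by 1 bp or more) from separate libraries were merged, giving 48 regions out of 24765 in the whole series, with 28 at Bcl2, 12 at Bcl2l11 and 8 at Mcl1. Regions are numbered along each locus from the lower coordinate.

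The A384T group comprised 3 ChIP libraries of FoxP3 from CD4+ hCD2+ Treg cells of FoxP3A384T:hCD2 mice, and the WT group comprised 3 from the same cells of FoxP3WT:hCD2 mice. Mice of both groups were C57BL/6J and carried the hCD2 reporter by which the cells of spleen and lymph nodes were sorted on magnets. The cells were freshly isolated and untreated, and FoxP3 was precipitated with a rabbit polyclonal antibody made in house. The labels give no age for the animals and are silent on whether each replicate had its own animals, and a p-value here reflects variation among libraries that may be purely technical. Peak lists hold no expression values, and cell identity was not checked against markers. The lists differed widely in length, with 18147, 6657 and 2050 peaks in A384T replicates 1, 2 and 3 and 20723, 1746 and 3905 in WT replicates 1, 2 and 3. Unique ChIP tags ranged from 17520951 to 25386770 per library. Both replicate 1 libraries had 51 bp tags and the other libraries 49 bp tags.

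FoxP3 is the forkhead transcription factor that defines Treg cells, and the A384T substitution lies in its DNA-binding forkhead domain. The BCL-2 family sets the threshold for mitochondrial apoptosis. Bcl-2 and Mcl-1 hold the pore-forming proteins Bax and Bak in check, while Bim, the product of Bcl2l11, is a BH3-only protein that neutralises the survival proteins and triggers cell death. In Treg cells Mcl-1 is required for survival, and Bim limits the size of the population.

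In RefSeq annotation of GRCm38.p6 the Bcl2 gene spans 176115 bp and lies between Phlpp1 and Kdsr, Bcl2l11 spans 36510 bp and lies next to Acoxl, and Mcl1 spans 6236 bp between Ensa and Adamtsl4. The peaks are in mm9, a different build, so they were not assigned to exons, introns or start sites, and a window can hold part of a neighbouring gene. RefSeq lists 2 starts for Bcl2l11, and the 250 bases before each are shown because, of the 27 regions here that both replicate 1 lists held, the one that ranked highest in A384T relative to WT lay at this gene. Capitals mark a match to TGTTTAC, a core forkhead sequence, searched on both strands.
Bcl2l11 upstream start, GRCm38.p6 chr2:128125788-128126037, plus strand: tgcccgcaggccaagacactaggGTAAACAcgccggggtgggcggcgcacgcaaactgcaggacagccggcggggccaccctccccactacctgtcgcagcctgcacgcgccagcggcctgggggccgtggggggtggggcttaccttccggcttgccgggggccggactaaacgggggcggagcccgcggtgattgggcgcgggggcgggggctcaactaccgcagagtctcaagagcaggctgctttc
Bcl2l11 downstream start, GRCm38.p6 chr2:128127325-128127574, plus strand: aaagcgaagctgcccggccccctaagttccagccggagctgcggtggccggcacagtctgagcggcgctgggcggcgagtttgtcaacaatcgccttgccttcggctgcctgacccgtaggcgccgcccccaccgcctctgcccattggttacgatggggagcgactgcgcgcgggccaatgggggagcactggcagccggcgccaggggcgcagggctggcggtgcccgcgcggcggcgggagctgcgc
The upstream sequence held 1 match, on the minus strand, whose first base lay 227 bases before the start. The downstream sequence and the single sequences listed for Bcl2 and Mcl1 held none. Of 32841 mouse promoter sequences of this length, 3.17% held a match. No peak was placed on these sequences.

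FoxP3 peaks were found at Bcl2 in all 6 libraries, and at Bcl2l11 and Mcl1 in only some of them. Bcl2 had 13, 8 and 2 peaks in A384T replicates 1, 2 and 3, against 28, 5 and 5 in WT replicates 1, 2 and 3. Bcl2l11 had 10, 4 and 0 peaks in A384T, against 11, 0 and 1 in WT, and Mcl1 had 7, 3 and 0 in A384T, against 7, 0 and 0 in WT. The longest lists gave the highest counts, and both genotypes had a library without a peak at the last-named pair of loci. A locus without a peak in a list had no summit past the q-value cutoff of the authors, and weaker binding there would not be listed.

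The density of peaks at Bcl2 was high in every list. The mean number of peaks per 300 kb window, laid end to end along the chromosomes, was 2.05, 0.747 and 0.233 in A384T replicates 1, 2 and 3, and 2.35, 0.192 and 0.434 in WT replicates 1, 2 and 3. The share of the 8777 windows with at least as many peaks as Bcl2 was 2.24, 1.49 and 4.44% in A384T replicates 1, 2 and 3, against 0.684, 0.684 and 1.91% in WT replicates 1, 2 and 3. For Bcl2l11 the share of 110 kb windows with at least as many peaks was 0.555 and 1.54% in A384T replicates 1 and 2, against 1.05 and 8.27% in WT replicates 1 and 3. For Mcl1 the share of 70 kb windows was 0.653 and 1.59% in A384T replicates 1 and 2, against 1.39% in WT replicate 1. Windows include stretches without genes, so these shares are a description of each list.

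Relative to the length of the lists, Bcl2 held fewer peaks in every A384T library than in every WT library, by a narrow margin. There were 7.16, 12.02 and 9.76 peaks per 10000 listed peaks in A384T replicates 1, 2 and 3, against 13.5, 28.6 and 12.8 in WT replicates 1, 2 and 3. Of the 5 peaks behind the WT replicate 2 value, 2 lay in the same region, region 18, and were counted separately. The means were 9.65 ± 2.43 in A384T and 18.3 ± 8.94 in WT (SD, n = 3 each), a difference of -8.67 (two-sided p = 0.1 by exact permutation test, which with 3 against 3 can go no lower). Among 725 windows of 300 kb with a peak in all 6 lists, 3.31% were lower in every A384T library in the same way and 0.414% were higher in every A384T library. The difference rested largely on the shortest list: it was -3.51 without WT replicate 2. With peaks of -log10 q of at least 20 alone it was -5.12 (exact permutation p = 0.3), and the genotypes then overlapped. When each list was cut to the 1746 peaks of the shortest, Bcl2 held 1, 3 and 2 peaks in A384T and 1, 5 and 2 in WT, and the difference was -3.82 (exact permutation p = 0.9). Within the 49 bp libraries it was -9.83 (exact permutation p = 0.333, the smallest that 2 against 2 allows), while each genotype had a single 51 bp library.

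At Bcl2l11 and Mcl1 the genotypes overlapped. Bcl2l11 averaged 3.84 ± 3.33 peaks per 10000 in A384T and 2.62 ± 2.65 in WT (SD, n = 3 each; difference 1.22, two-sided exact permutation test, p = 0.6). This difference became -0.0947 without WT replicate 2. Mcl1 averaged 2.79 ± 2.44 in A384T and 1.13 ± 1.95 in WT (difference 1.66, exact permutation p = 0.4), with all WT peaks in replicate 1. Without A384T replicate 2 this difference was 0.803, and it was 3.06 without A384T replicate 3, 2.79 without WT replicate 1 and 1.099 without WT replicate 2 or 3.

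**Figure D1:**
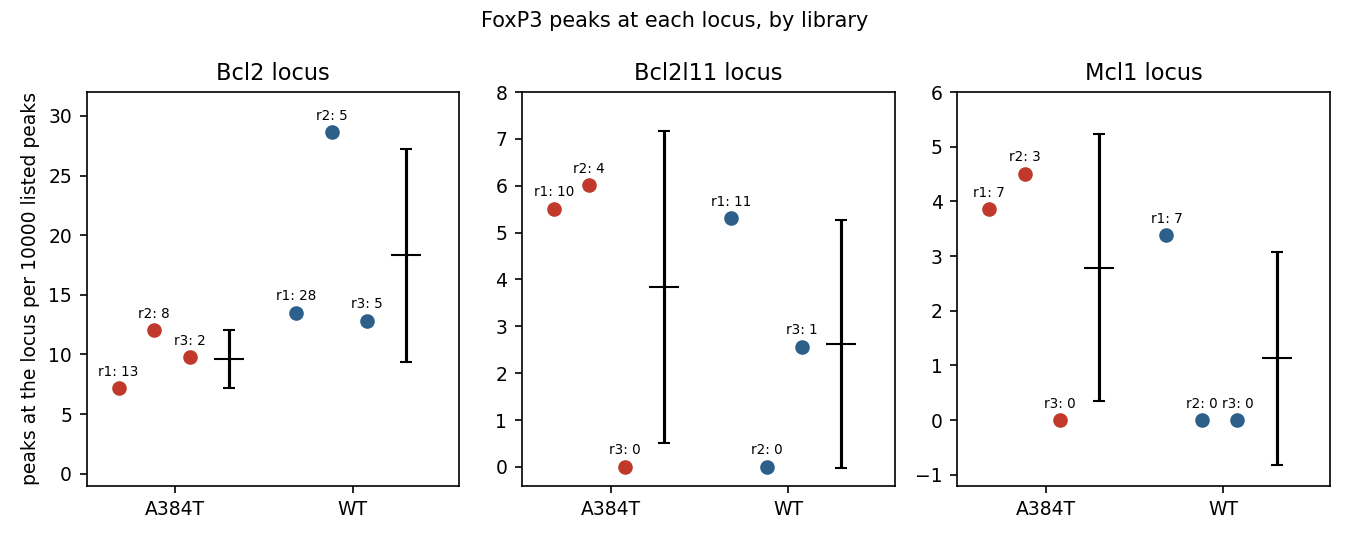
Peaks at each locus per 10000 peaks listed on chromosomes 1 to 19, X and Y. Each point is a library, with its replicate number and its count of peaks beside it, and the bars give the mean and SD of the 3 libraries; at Bcl2 the A384T points (7.16 to 12.02) lie below the WT points (12.8 to 28.6), while at Bcl2l11 and Mcl1 both genotypes reach 0.

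Most regions at the 3 loci were seen in both genotypes or in replicate 1 lists alone, in shares close to those of the whole series. Both genotypes had a peak in 27 of the 48 regions, against 56% of all 24765. Peaks in 1 or both of the replicate 1 lists and in no other list were found for 34, against 71.1% of all. The remaining classes were rarer: 6 regions had a peak in at least 4 libraries, against 14% of all, and 2 had one in all 6, against 3.88% of all. WT libraries alone had a peak in 19 regions, against 26.8% of all, and A384T libraries alone in 2, against 17.2% of all. Each of these 21 had a peak in 1 replicate 1 library and nowhere else. More A384T than WT libraries had a peak in 10 regions, against 30.7% of all, and more WT than A384T libraries in 21, against 31% of all.

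No region at the 3 loci was found repeatedly in one genotype and never in the other. The count with a peak in at least 2 A384T libraries and in no WT library was 0, against 0.763% of all regions. The reverse count was also 0, against 0.872% of all. Presence in A384T replicates 1 and 2 and in WT replicate 1, but in neither other WT library, was seen for 8 regions, against 11.4% of all, so without WT replicate 1 the first count was 8. No region had the mirror pattern, with peaks in both replicate 1 libraries and in WT replicate 2 or 3 but not in A384T replicate 2 or 3, against 1.69% of all. With lists of 1746 peaks the first count was 1 of 6 regions, Bcl2l11 region 4, against 9.62% of 3744, and the reverse count was 0, against 9.08%. With peaks of -log10 q of at least 20 alone, the first count was 1 of 43 regions, again Bcl2l11 region 4, against 0.87% of 21610, and the reverse count was 0, against 0.597%. Region 14 of Bcl2 was then the 1 region found in all 6 libraries, against 13.4% of all in the lists of equal length and 3.33% of all at the stricter cutoff.

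At Bcl2, the gene of the founding survival protein of the family, 5 of 28 regions had a peak in at least 4 libraries. These recurrent regions were 9, 14, 17, 18 and 23. Regions 14, 17 and 18 lay within 11.6 kb, measured between centres, region 9 lay 31.4 kb below region 14 and region 23 lay 46.3 kb above it. Of the other 23 regions, 3 had peaks in A384T replicates 1 and 2 and in WT replicate 1, 5 had peaks in both replicate 1 libraries, and 15 had a peak in WT replicate 1 alone.

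Region 14, on chromosome 1 from 108497310 to 108498207, was the strongest at Bcl2 by -log10 q in all 6 libraries. The authors' fold enrichment over control, which describes a peak within its own list, was 40.7, 19.2 and 11.1 in A384T replicates 1, 2 and 3, against 42.1, 10.4 and 20.7 in WT replicates 1, 2 and 3. The summit pileup was 99, 77.6 and 44 in A384T, against 165, 51.0 and 77 in WT. Summits of the 6 libraries fell within 166 bp of each other. By fold enrichment it was not the first at Bcl2 in A384T replicate 2, where region 17 reached 23.2, nor in WT replicate 2, where region 18 reached 10.7.

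To compare strength across lists of unequal length, each peak was placed by -log10 q among the 962 regions found in all 6 libraries. Region 14 stood at the 55.1, 43.1 and 47.9 percentile of this set in A384T replicates 1, 2 and 3, against the 71.9, 48.1 and 75.8 percentile in WT replicates 1, 2 and 3. The means were 48.7 ± 6.07 in A384T and 65.3 ± 14.98 in WT (SD, n = 3 each), a difference of -16.6 points. The genotypes overlapped, because A384T replicate 1 lay above WT replicate 2 (two-sided exact permutation test, p = 0.2, and 0.561 after Benjamini-Hochberg adjustment over the 962 regions). Within same-numbered libraries, A384T lay below WT in 3 of 3 pairs (exact permutation p = 0.25 with the replicate block, the smallest that 3 pairs allow). The pairs were inferred from these same 962 regions, and the share of them with this pattern was not counted.

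Region 18, on chromosome 1 from 108508837 to 108509797, was the other region with a peak in every library. Its fold enrichment was 20.7, 16.4 and 9.49 in A384T replicates 1, 2 and 3, against 18.8, 10.7 and 8.94 in WT replicates 1, 2 and 3. In the shared set it averaged the 12.2 ± 3.11 percentile in A384T and the 12.9 ± 8.18 percentile in WT (SD, n = 3 each; difference -0.780, exact permutation p = 1, and 1 after adjustment). It therefore ranked low among shared regions in both genotypes. Neither region 14 nor region 18 had ranks that separated the genotypes, where 11.5% of the 962 ranked higher in every A384T library and 13.3% higher in every WT library.

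Relative to region 14, the pileups of regions 18 and 9 varied to different degrees. The summit pileup of region 18 was 0.677, 0.683 and 0.614 of that of region 14 in A384T replicates 1, 2 and 3, against 0.612, 0.655 and 0.532 in WT replicates 1, 2 and 3. For region 9 it was 0.758 and 0.598 of that of region 14 in A384T replicates 1 and 2, against 0.515, 0.483 and 0.338 in WT replicates 1, 2 and 3. The A384T ratios of region 9 lay above those of WT, whereas those of region 18 overlapped. Ratios of region 17 to region 14 overlapped too, at 0.515 and 0.744 in A384T replicates 1 and 2, against 0.497, 0.638 and 0.532 in WT. These pairs of regions were chosen after their values were seen, and no test was made. The share of all region pairs whose ratios separate the genotypes as those of region 9 do was not counted. Pileup takes no account of the control. The control background at region 9, worked back from pileup and fold, was 1.41 and 3.92 times the genome mean in A384T replicates 1 and 2. In WT replicates 1, 2 and 3 it was 1.81, 1.005 and 1 times, and its part in the difference was not tested. Region 18 was broad, with a peak of 873 bp in A384T replicate 1 and of 961 bp in WT replicate 1, and its summits were spread over 360 bp. They lay at 108509486, 108509253 and 108509491 in A384T replicates 1, 2 and 3. WT replicates 1 and 3 had theirs at 108509131 and 108509450, and WT replicate 2 had 2 separate peaks there with summits at 108509182 and 108509369, of which the stronger is used above.

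**Figure D2:**
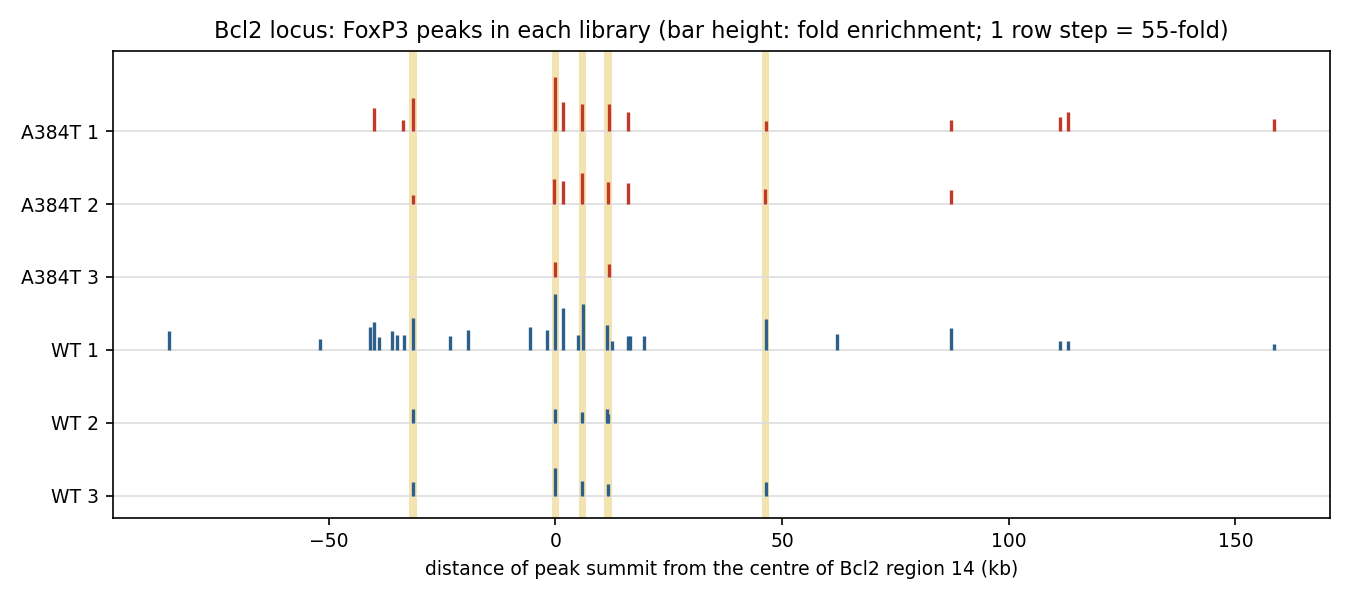
FoxP3 peaks at the Bcl2 locus by library, placed by the distance of their summit from the centre of region 14 in kb; the height of a bar is the authors' fold enrichment. Shaded columns mark the 5 regions with a peak in at least 4 libraries; A384T replicate 3 had a peak in 2 of them, and WT replicate 1 had 28 peaks over the locus.

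Regions 9 and 17 had a peak in every library but A384T replicate 3. Region 9, on chromosome 1 from 108466087 to 108466540, had a fold enrichment of 24.9 and 6.77 in A384T replicates 1 and 2, against 24.3, 10.3 and 10.6 in WT replicates 1, 2 and 3. Region 17, from 108503462 to 108503935, had 20.6 and 23.2 in A384T replicates 1 and 2, against 34.5, 8.39 and 11.1 in WT replicates 1, 2 and 3. Within A384T the pair changed places: region 9 stood at the 20.7 percentile of the shared set in replicate 1 and at 1.04 in replicate 2, whereas region 17 stood at 5.82 in replicate 1 and at 31.7 in replicate 2. The WT values lay inside these spreads, between 2.81 and 8.32 for region 9 and between 9.98 and 14.6 for region 17.

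Region 23, on chromosome 1 from 108543922 to 108544287, was recurrent but stood low in the shared set in both genotypes, and lower in A384T. Its fold enrichment was 7.40 and 11.2 in A384T replicates 1 and 2, against 23.7 and 10.5 in WT replicates 1 and 3. In the shared set it stood at the 0.208 and 1.14 percentile in A384T replicates 1 and 2, against the 5.41 and 4.78 percentile in WT replicates 1 and 3. By this percentile the groups did not overlap, but A384T replicate 3 and WT replicate 2 had no peak there, and no test was made. By fold enrichment they overlapped, with A384T replicate 2 (11.2) above WT replicate 3 (10.5). The share of all regions that differ in this way was not counted. Within the full list it stood at the 4.54 percentile of A384T replicate 1 and at the 85.7 percentile of WT replicate 1, whereas A384T replicate 2 (22.98) and WT replicate 3 (34.02) were closer.

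**Figure D3:**
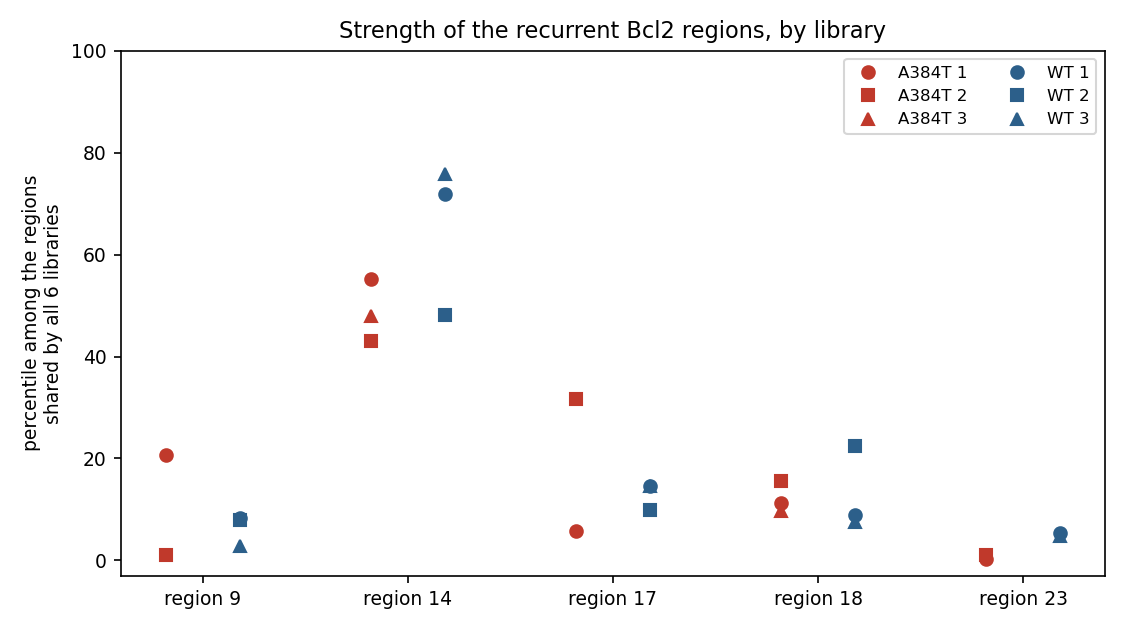
Percentile of the 5 recurrent Bcl2 regions by -log10 q among the 962 regions shared by all 6 libraries, by library; symbols give the replicate and a missing symbol means no peak in that list. Region 14 stands highest in every library, at 43.1 to 55.1 in A384T and 48.1 to 75.8 in WT. At region 23 both A384T points lie below both WT points, though by fold enrichment the genotypes overlap there. The share of all regions with points separated in this way was not counted.

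The upper end of the Bcl2 window held regions seen in the long lists alone. Region 27, from 108610437 to 108611150 and chosen after its values were seen, had summits 1 bp apart in the 2 replicate 1 libraries, with a fold enrichment of 14.3 in A384T and 7.12 in WT. The summit pileup was 80 in A384T and 69 in WT. The control background there, worked back from pileup and fold, was 3.20 times the genome mean in A384T and 6.29 times in WT, so fold differed together with the control, and its part in the difference was not tested.

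At Bcl2l11, which encodes the death-promoting Bim, the recurrent region and the strongest region of A384T by -log10 q were different ones. Region 1, on chromosome 2 from 127943367 to 127943852, had a peak in 4 libraries, with a fold enrichment of 11.8 and 17.6 in A384T replicates 1 and 2, against 23.3 and 13.02 in WT replicates 1 and 3. It was the first by -log10 q of the 11 peaks at the locus in WT replicate 1, and the only peak there in WT replicate 3. In the shared set it stood at the 1.46 and 11.3 percentile in A384T replicates 1 and 2, against 1.87 and 11.8 in WT replicates 1 and 3, so the genotypes overlapped. Region 9 of this locus, from 127985569 to 127985824, had the highest mean list percentile but rested on 1 peak, in WT replicate 1, with a fold of 15.97.

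Region 4 of Bcl2l11, on chromosome 2 from 127952959 to 127953437, ranked much higher in A384T lists than in the WT list that held it. It was chosen for description after its values were seen. Fold enrichment was 22.1 and 17.5 in A384T replicates 1 and 2, against 6.97 in WT replicate 1, and the summit pileup was 139 and 56.8 in A384T against 36 in WT. It was the first of its locus by -log10 q in both A384T libraries and the 11th of 11 peaks in WT replicate 1. By fold enrichment region 4 was not the first in A384T replicate 2, where region 1 reached 17.6. Nor was it the last by fold in WT replicate 1, where region 3 had 5.96. Among the shared regions it stood at the 54.4 and 18.9 percentile in A384T replicates 1 and 2, and below all 962 in WT replicate 1.

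Regions 4 and 1 can be set against each other in the 3 libraries that held both, which restates the values of a region picked for them. The summit pileup of region 4 was 2.96 and 1.30 times that of region 1, 9.59 kb away, in A384T replicates 1 and 2, against 0.655 times in WT replicate 1. WT replicate 3 had region 1, with a pileup of 32, and no peak at region 4. The control background at region 4 was 3.67 and 1.499 times the genome mean in A384T replicates 1 and 2, against 3.06 times in WT replicate 1, and its part in the difference was not tested. A384T replicate 3 had no peak at the locus, and with values from 2 A384T libraries and 1 WT library no test was made.

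Region 3, from 127951469 to 127952035 and 1.45 kb from region 4, had the same pattern of presence at lower strength. Its fold enrichment was 7.88 and 8.85 in A384T replicates 1 and 2, against 5.96 in WT replicate 1. Region 10, from 127986207 to 127986665, shared the pattern too, and both were chosen after their values were seen. Its fold enrichment was 16.1 and 9.17 in A384T replicates 1 and 2, against 18.3 in WT replicate 1, so presence in these 3 lists did not fix the order of the values.

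Mcl1, a survival protein with a short half-life, had binding in the longer lists alone. Region 5, on chromosome 3 from 95472599 to 95473331, had the highest mean list percentile at the locus, with a fold enrichment of 22.0 and 19.8 in A384T replicates 1 and 2, against 16.9 in WT replicate 1. In A384T replicate 2 it was split into 2 peaks, with summits at 95472748 and 95473122, and the higher of them is given. Region 6, 3.86 kb away from 95476370 to 95477278, had 9.29 and 7.18 in A384T replicates 1 and 2, against 22.0 in WT replicate 1, where the higher of 2 peaks is given for A384T replicate 1. By fold the order of the pair thus differed between the genotypes, also with the lower peak of A384T replicate 2 (10.2). By pileup the order depended on the peak used. With the higher peak, the pileup of region 5 was 1.09 and 1.25 times that of region 6 in A384T replicates 1 and 2, against 0.765 times in WT replicate 1. The lower peak, at 95472748, lay nearer the summit of both replicate 1 libraries, 95472757. Its pileup of 39.8 was below the 49.2 of region 6, the order seen in WT replicate 1. With 1 WT library the difference in order has no replicate check, and region 6 was chosen after its values were seen.

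**Figure D4:**
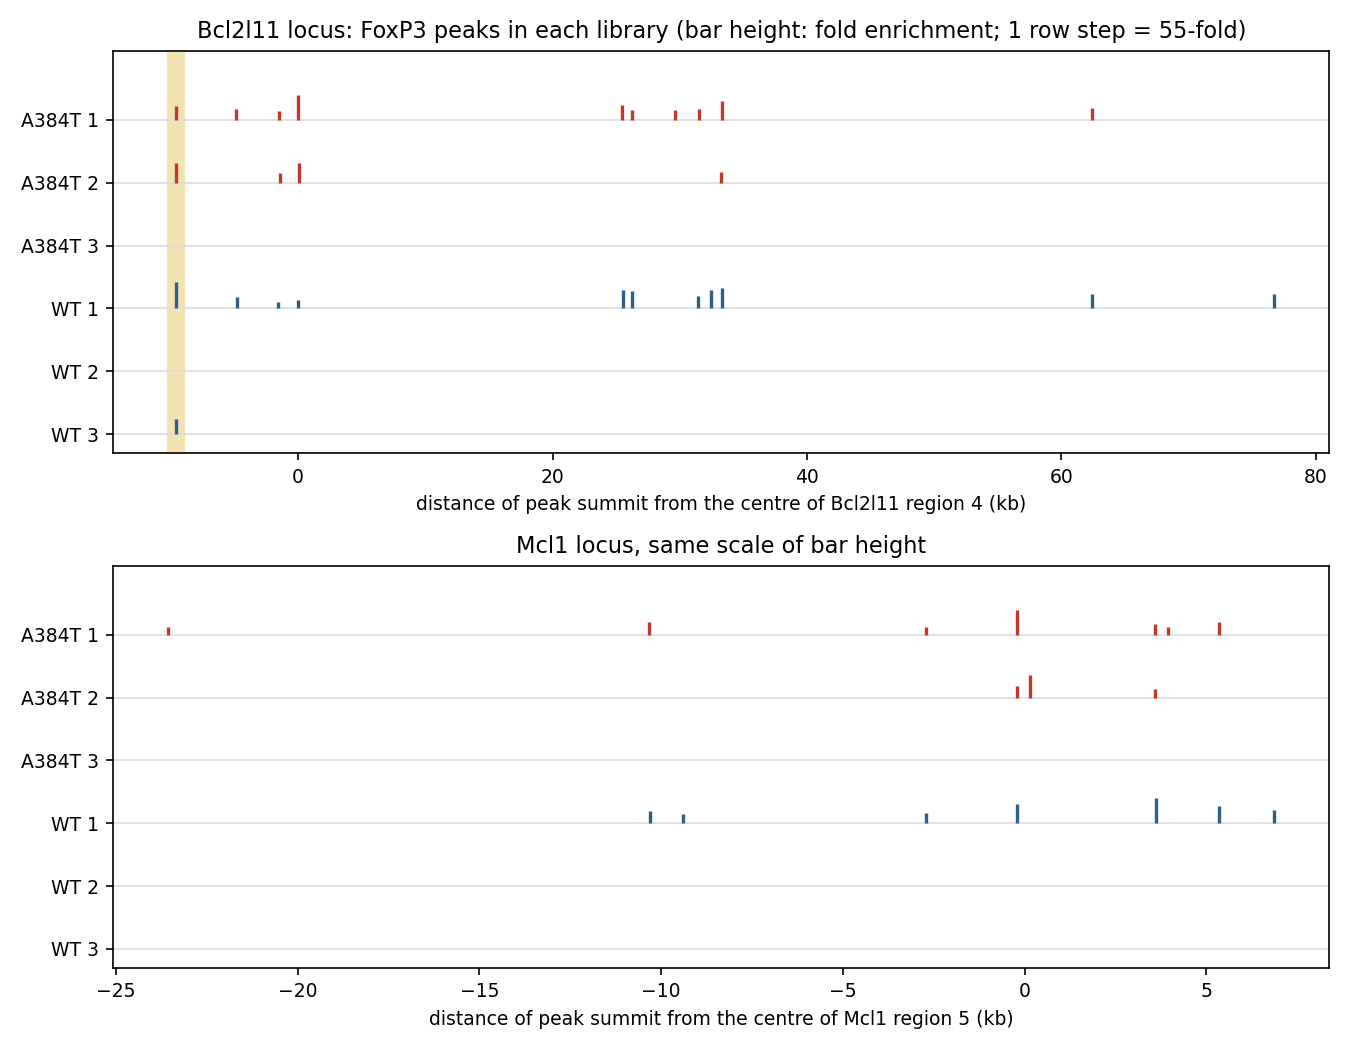
FoxP3 peaks at Bcl2l11 and Mcl1 by library, placed by the distance of their summit from the centre of Bcl2l11 region 4 and of Mcl1 region 5 in kb; the height of a bar is the authors' fold enrichment, and the shaded column marks Bcl2l11 region 1. At distance 0 in the Bcl2l11 panel the bars reach 22.1 and 17.5 in A384T replicates 1 and 2, against 6.97 in WT replicate 1.

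The strongest peak did not separate the genotypes at Bcl2 or Bcl2l11, and at Mcl1 only 1 WT library had a value. By list percentile of -log10 q the strongest peak at Bcl2 averaged 81.5 ± 17.7 in A384T and 86.0 ± 17.6 in WT (SD, n = 3 each; two-sided exact permutation test, p = 0.6). At Bcl2l11 the values were 86.0 ± 12.4 in A384T and 65.0 ± 18.9 in WT (SD, n = 2 each; exact permutation p = 0.667, where 2 against 2 allows 0.333). That difference of 20.96 points was 12.2 without A384T replicate 1, 34.3 without WT replicate 1 and 7.62 without WT replicate 3. At Mcl1 they were 82.2 ± 1.34 in A384T (SD, n = 2) and 90.5 in the 1 WT library with a peak (difference -8.36, exact permutation p = 0.667, the smallest possible here). Both A384T values at Mcl1, 81.2 and 83.1, lay below the WT value, which rests on 1 library. The libraries without a peak at a locus have no value and were left out.

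Setting the 2 longest lists side by side showed where regions of these loci stood relative to others. Of the 13567 regions with a peak in both replicate 1 libraries, 27 lay at the 3 loci. The list percentile was higher in A384T replicate 1 than in WT replicate 1 for 5 of the 27, against 43.6% of the 13567, and the median difference was -15.6 points, against -2.82 for all. A fall of at least 50 points in A384T was seen for 4 (Bcl2 regions 8, 23 and 25 and Bcl2l11 region 6), against 4.8% of all, and a rise of at least 50 points for 1 (Bcl2l11 region 4), against 2.86% of all. Those that no rule had chosen are named here after their values were seen.

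Bcl2l11 region 4 stood at the 94.7 percentile in A384T and at 11.3 in WT, a difference of 83.5 points that 0.0663% of the 13567 regions reached or passed in that direction. Bcl2 region 23 had a difference of -81.1 points, which 0.140% reached or passed in that direction. Each genotype has 1 library here, so these values have no replicate check, and neighbouring regions of a locus are not independent of each other.

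**Figure D5:**
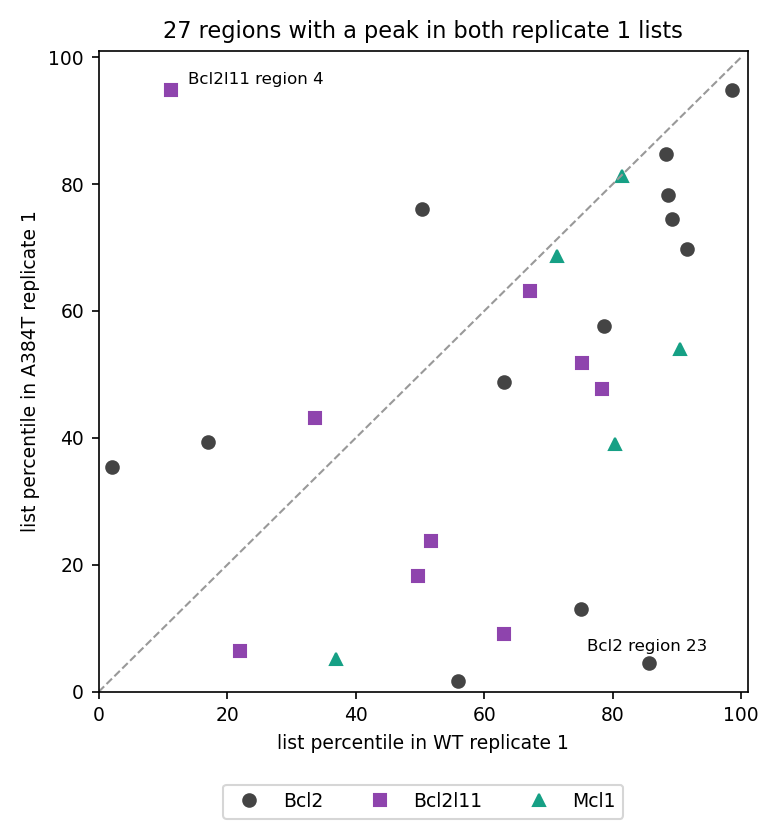
List percentile by -log10 q in A384T replicate 1 (vertical axis) and WT replicate 1 (horizontal axis) for the 27 regions at the 3 loci with a peak in both lists; the dashed line marks equal percentiles. Most points lie below the line, with 5 above it, and Bcl2l11 region 4 and Bcl2 region 23 lie farthest from it on opposite sides.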

How the data were processed

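Bowtie2, MACS2 and mm9 are named in the submitters' processing notes. Per the file headers, peaks were called per library with MACS 2.1.0.20140616 against a control at a q-value cutoff of 1e-10. Only 1 tag was kept per position, and the larger set was scaled to the smaller. The labels do not say which input library each control was. The deposited lists give each summit's pileup (a signal value), fold enrichment (a ratio over local control) and -log10 p-value and q-value. Input libraries were not analysed as samples.

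Unplaced sequences were left out. List percentile is a peak's rank by -log10 q within its list, ties averaged, as a percent. Control background is (pileup + 1)/fold - 1, and its lowest value in each list lay at the genome mean from the headers, within rounding. Joining was tested on simulated lists. Exact permutation tests were two-sided. Same-numbered libraries of the 2 genotypes deviated together over the 962 shared regions (correlations 0.477, 0.127 and 0.377 for replicates 1, 2 and 3), so the numbers were taken as pairs from these data, not from the labels. Regions were named if present in at least 4 libraries, in 2 or more of 1 genotype with none in the second, or first in mean list percentile at their locus; others are given as chosen later. The loci and regions were chosen with earlier results of these data known. The shared-set percentile was added later. Other family genes were not analysed here. Python 3.11.15, numpy 2.4.6, pandas 2.3.3, scipy 1.17.1 and matplotlib 3.10.9 were used.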

Additional observations from a re-analysis of the deposited data

How the results depend on the processing

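Of 115 alternatives to 9 results, 102 kept the direction, or the count within 1.5 times, 6 moved a count and 7 reversed a difference, none of which had passed a threshold. Reversed values were -0.396 peaks per 10000 at Bcl2l11 with -log10 q of at least 20, 4.13 and 0.138 points for the strongest peak at Bcl2 and Mcl1 ranked by fold, and 10.3 points at Mcl1 in the shared set, an alternative added after the data were seen. Leaving out 1 library at a time gave -14.5 to 5.59 points for the strongest peak at Bcl2 (5.59 without A384T replicate 3, 1.87 without WT replicate 1), and -0.0947 to 3.14 peaks per 10000 at Bcl2l11. The count of regions in all libraries was 1 with -log10 q of at least 20 and 1 with lists of equal length, and 2 to 4 with a library left out (4 without A384T replicate 3). The count for at least 2 A384T and no WT libraries was 1 with -log10 q of at least 20 and 1 with lists of equal length, and 0 to 8 with a library left out (8 without WT replicate 1). Shorter lists hold fewer peaks, and a class defined over fewer libraries asks less. Bcl2l11 region 4 had a -log10 q of 18.7 in WT replicate 1, below the stricter cutoff, against 137 and 52.9 in A384T replicates 1 and 2. The causes of the moved counts and of the reversed differences were not tested. With the replicate block the Bcl2 difference of -8.67 had an exact permutation p of 0.25, the smallest that 3 pairs allow, and the block changed no call. No block could be fitted for the strongest peak at Bcl2l11 and Mcl1, where fewer than 2 pairs had values. Replicates 2 and 3 alone gave no value for the strongest peak at Mcl1, and neither did leaving out WT replicate 1. List length limits what can be seen: a region missing from a short list was below its cutoff.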
